A study of Mus musculus with 12 samples.

Results

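The interferon regulatory factor genes form a small family of DNA-binding transcription factors, and 8 of them, Irf1, Irf2, Irf3, Irf4, Irf5, Irf7, Irf8 and Irf9, were followed here across 4 ages of mouse splenic Ly6G+ cells. They were chosen by name from the 38887 gene identifiers of the count table, and all 8 were found and passed the filter on low counts. Ly6G is a surface protein of mouse neutrophils, and the submitters call the cells PMN-MDSC, polymorphonuclear myeloid-derived suppressor cells, a name for neutrophils that restrain T cells. Polyadenylated RNA was sequenced from cells of mice that were 2, 7 or 14 days or 6 weeks old, with 3 libraries at each age and 12 in all. The labels give no treatment, genotype, strain or sex, and leave unsaid whether libraries of one age are separate animals. Each p-value below sets a difference against the spread between libraries of an age, estimated over all 12. That spread may be technical. The series title concerns a transitory suppressive activity of neutrophils in newborns, and the comparisons with 6 weeks set each young age against the oldest one.

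Every member of the family carries a DNA-binding domain that reads repeats of the letters GAAA, the core of interferon-stimulated response elements. Irf3, Irf5 and Irf7 sit in the cytoplasm until kinases downstream of nucleic acid and Toll-like receptors phosphorylate them, after which they switch on interferon genes. Irf9 joins Stat factors in the complex that carries type I interferon signals to the nucleus, Irf1 and Irf2 act on shared sites as an activator and mostly as a repressor, and Irf4 and Irf8 bind DNA together with partners such as PU.1 (Spi1) in lymphoid and myeloid cells. In blood cell formation Irf8 is best known for favouring monocytes and dendritic cells over neutrophils.

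The stretches just upstream of several of the genes held letters that match short searched motifs. Some of these stretches are printed to show what lies at genes whose levels were compared between ages. Promoter sequences were those of RefSeq on GRCm38.p6, each holding 250 bases before and 50 after a start site, and all 8 members had at least 1 such window among 11. The GAS motif, bound by dimers of Stat factors, was searched as TTCNNNGAA, which reads the same on both strands. The interferon regulatory factor motif was searched on both strands as GAAANNGAAA. The next lines give 60 bases each from the promoters of Irf1 (chr11:53769904-53769963, plus strand), Irf2 (chr8:46739495-46739554, plus strand) and Irf8 (chr8:120736168-120736227, plus strand), with the matches in capitals.
Irf1: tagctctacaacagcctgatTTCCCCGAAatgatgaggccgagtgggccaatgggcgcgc
Irf2: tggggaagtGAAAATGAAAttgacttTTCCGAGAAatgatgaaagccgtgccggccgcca
Irf8: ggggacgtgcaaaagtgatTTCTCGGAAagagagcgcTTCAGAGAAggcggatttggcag
Irf1 and Irf2 held 1 GAS match each, Irf8 held 2, and the other members held none in these windows. A GAS match was found in 8.30% of all 32851 promoter windows. Irf2 alone of the members held the factor motif in these windows, and 3.44% of all windows held it. The windows follow RefSeq starts, which can differ from those of the GENCODE annotation. Both windows of Irf9 lie inside its GENCODE gene, and that of Irf7 lies partly inside. The sequence before the GENCODE start was thus not searched for Irf9 and only partly for Irf7.

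Irf4, Irf7 and Irf8 had a TATA box, TATAAA on the sense strand, between 40 and 21 bases before the RefSeq start site. The GENCODE annotation starts Irf4 at 30749226, where RefSeq has 30749233. For Irf7, on the minus strand, GENCODE starts at 141266481 and RefSeq at 141266424, so the match lies inside the GENCODE gene. The TATA box was looked for after the sequences had been seen, so the 1.87% of all windows that hold it there gives no test of a link with age. The 30 bases from 45 to 16 before the start are given for Irf4 (chr13:30749188-30749217, plus strand), Irf7 (chr7:141266440-141266469, minus strand) and Irf8 (chr8:120736313-120736342, plus strand).
Irf4: tgcactccgcctccggctcTATAAAgttcc
Irf7: cctctgcccgaagtacTATAAAagcactgg
Irf8: tcccccgccccatcTATAAAagcaggcgcg
The NF-kappaB consensus, searched on both strands, was matched in Irf1 and Irf2 and in 8.46% of all windows. A match describes letters and is neither a site nor a cause.

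The libraries held between 34495767 and 38795913 counts each. Levels are given as CPM, counts scaled to a common library total, on library sizes scaled by edgeR's TMM factors, which ranged down to 0.828 in 2-day replicate 2. Differences are log2 fold changes from 1 edgeR quasi-likelihood model of the 12 libraries, called at a Benjamini-Hochberg adjusted p under 0.05 over 15494 genes. The defining neutrophil transcripts were present at every age, with S100a8 at 8974 CPM or more and Ly6g at 93.7 CPM or more on average. Markers of other cells were present too, and their summed levels stand beside the results they move with. Counts from 4 Y-linked genes were 1816 to 4010 in each library of 2 and 7 days and 0 or 1 in each library of 14 days and 6 weeks, so that the sex of the mice and the age cannot be told apart in comparisons across that line. In sorted but bulk RNA, fewer cells of a type and less RNA per cell cannot be told apart.

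The highest mean level was found at 6 weeks for 6 of the 8 factors, Irf1, Irf2, Irf3, Irf5, Irf7 and Irf9. Irf4 was highest at 7 days, and Irf8 stood at nearly one level at 7 days and 6 weeks. In the joint test of any difference between the 4 ages, 6 of 8 members were called, beside 69.2% of all genes tested, so that the count itself does not set the family apart. Irf2 and Irf3 were not called, with adjusted p-values of 0.348 and 0.144. Against 6 weeks, 4 of 8 members were lower at 2 days and none was higher, where 40.4% of all genes were called and 19.7% were lower. At 7 days 4 were lower and 1, Irf4, was higher, where 51% of genes were called and 26.6% were lower. At 14 days 3 were lower and none was higher, where 18.9% were called and 9.26% were lower. The median log2 fold change of the 8 was -0.62 at 2 days, beside 0.04 over all genes, -0.52 at 7 days, beside -0.01, and -0.35 at 14 days, beside 0.00. The count at 2 days rests on 2-day replicate 2, without which all 8 members were called, 7 lower and 1 higher. At 14 days the count of called members was 5 without that library, with Irf3 gained as lower and Irf4 as higher. It was 1 without either 14-day replicate 3 or 6-week replicate 3.

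**Figure D1:**
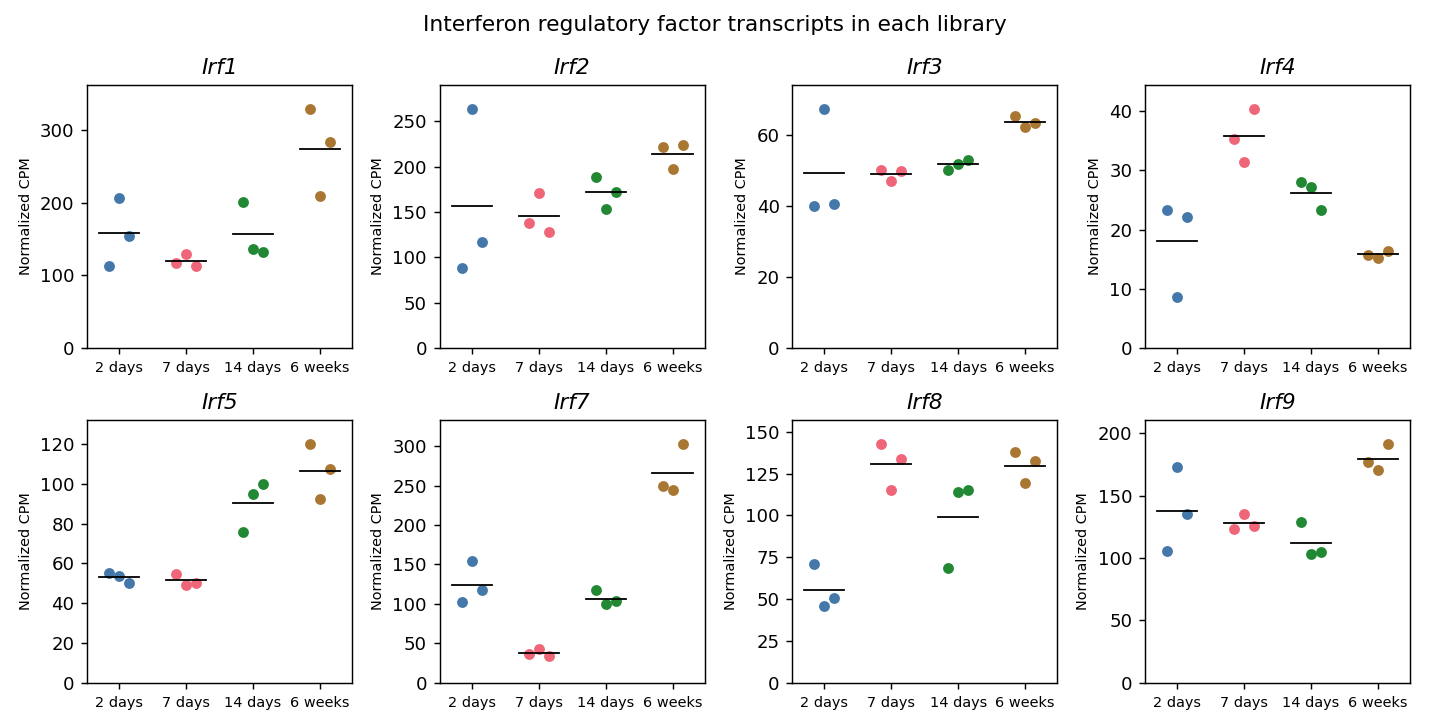
Normalized CPM (vertical axis, from 0) of each of the 8 factors in the 3 libraries of each age (horizontal axis), with a point per library and a line at the mean of the age. Irf7 drops to between 34.0 and 43.0 CPM at 7 days and reaches 245 CPM or more at 6 weeks, while Irf4 has its highest points at 7 days.

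Irf7, the factor that amplifies type I interferon production and is itself an interferon-induced gene, varied most. Its levels were 103, 154 and 117 CPM in the 3 libraries of 2 days, 37.1, 43.0 and 34.0 CPM at 7 days, 117, 99.4 and 103 CPM at 14 days, and 250, 245 and 303 CPM at 6 weeks. All libraries of 7 days lay below all others, all libraries of 6 weeks lay above all others, and 2 and 14 days overlapped. Against 6 weeks Irf7 was 6.99-fold lower at 7 days, a log2 fold change of -2.81 ± 0.17 (SE, n = 3 against 3, edgeR adjusted p = 3.35e-07), which ranked 38th of the genes tested by p-value. It was also lower at 2 days, by 2.13-fold (log2 -1.09 ± 0.16, edgeR adjusted p = 0.00019), and at 14 days, by 2.49-fold (log2 -1.32 ± 0.16, edgeR adjusted p = 0.000235). The course between the young ages was a fall and a return. Irf7 fell by 1.71 on the log2 scale from 2 to 7 days (edgeR adjusted p = 6.96e-06) and rose by 1.49 from 7 to 14 days (edgeR adjusted p = 2.64e-05), while 14 and 2 days did not differ detectably (log2 -0.23 ± 0.16, edgeR adjusted p = 0.33). Irf7 was called in 5 of the 6 pairs of ages, the most of any member, and kept those calls under every alternative setting and with each library left out.

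Irf5, a factor downstream of Toll-like receptors that drives inflammatory cytokine genes, was lower at the first pair of ages than at the later pair. Its levels were 55.0, 53.5 and 50.3 CPM at 2 days, 54.8, 49.2 and 50.2 CPM at 7 days, 75.7, 95.1 and 99.9 CPM at 14 days, and 120, 92.2 and 108 CPM at 6 weeks. Every library of 2 and 7 days lay below every library of 14 days and 6 weeks, and 14 days overlapped 6 weeks. Irf5 was 2.01-fold lower at 2 days (log2 -1.01 ± 0.13, edgeR adjusted p = 6.7e-05) and 2.07-fold lower at 7 days (log2 -1.05 ± 0.13, edgeR adjusted p = 3.98e-05) than at 6 weeks. The step came between 7 and 14 days, with a log2 rise of 0.81 ± 0.13 (edgeR adjusted p = 0.000336). At 14 days the difference from 6 weeks was -0.24 ± 0.13 on the log2 scale and was not called (edgeR adjusted p = 0.211). All 4 pairs of ages in which Irf5 was called set 2 or 7 days against 14 days or 6 weeks. The Y-linked counts divide the ages in the same way, so age and sex cannot be told apart for Irf5.

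Irf3, the constitutive member that is activated by phosphorylation rather than by new transcription, was with Irf2 one of the pair not called in the joint test. Its levels were 40.1, 67.5 and 40.7 CPM at 2 days, 50.3, 47.2 and 50.1 CPM at 7 days, 50.3, 52.1 and 53.1 CPM at 14 days, and 65.5, 62.4 and 63.5 CPM at 6 weeks. The 6-week libraries lay above all others except 2-day replicate 2, which was the highest of all 12. The log2 fold changes against 6 weeks were -0.37 ± 0.17 at 2 days, -0.38 ± 0.17 at 7 days and -0.30 ± 0.16 at 14 days, and none was called (edgeR adjusted p = 0.093, 0.0749 and 0.231). Without 2-day replicate 2 all 3 differences were called, at -0.65, -0.35 and -0.29 on the log2 scale (edgeR adjusted p = 4.83e-05, 0.00119 and 0.00885).

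Irf1, the interferon-gamma-induced activator of antigen presentation genes, had levels of 113, 207 and 154 CPM at 2 days, 117, 129 and 113 CPM at 7 days, 201, 137 and 132 CPM at 14 days, and 329, 209 and 283 CPM at 6 weeks. Each 6-week library lay above every younger one, though 6-week replicate 2 exceeded 2-day replicate 2 by little. Irf1 was 1.73-fold lower at 2 days (log2 -0.79 ± 0.23, edgeR adjusted p = 0.0167), 2.28-fold lower at 7 days (log2 -1.19 ± 0.23, edgeR adjusted p = 0.00119) and 1.75-fold lower at 14 days (log2 -0.81 ± 0.23, edgeR adjusted p = 0.0303). The 3 young ages did not differ detectably from each other. The 14-day call was lost without 14-day replicate 2 or 3 or 6-week replicate 1 or 3 (log2 between -0.65 and -0.78, edgeR adjusted p between 0.0882 and 0.123), and the 2-day call without 6-week replicate 1 (log2 -0.64, edgeR adjusted p = 0.0718).

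Irf2, which occupies the same sites and mostly represses, had levels of 88.2, 264 and 117 CPM at 2 days, 138, 171 and 128 CPM at 7 days, 188, 154 and 172 CPM at 14 days, and 222, 197 and 224 CPM at 6 weeks. The 2-day libraries held both the lowest and the highest value of all 12, with replicate 2 the high one. The differences from 6 weeks were -0.45 ± 0.30, -0.56 ± 0.30 and -0.32 ± 0.30 on the log2 scale at 2, 7 and 14 days, and none was called (edgeR adjusted p = 0.255, 0.145 and 0.504). Without 2-day replicate 2 Irf2 was lower at 2 days (log2 -1.05, edgeR adjusted p = 0.000189) and at 7 days (log2 -0.53, edgeR adjusted p = 0.00518). As a ratio of levels per kilobase of the principal transcript, Irf1 to Irf2 was 1.48 ± 0.25 (SD, n = 3) at 6 weeks, 0.970 ± 0.077 at 7 days, 1.06 ± 0.18 at 14 days and 1.32 ± 0.35 at 2 days. Irf1 thus exceeded Irf2 per kilobase in all 3 libraries of 6 weeks and in 1 of 3 at 7 days, with 6 weeks above 7 days in every library. Whether the ratio lies above 1 depends on the transcript length used.

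Irf9, the DNA-binding subunit of the interferon-activated Stat complex, had levels of 106, 173 and 135 CPM at 2 days, 123, 135 and 126 CPM at 7 days, 129, 103 and 105 CPM at 14 days, and 177, 170 and 192 CPM at 6 weeks. The 6-week libraries were the highest apart from 2-day replicate 2, which fell among them. Irf9 was 1.40-fold lower at 7 days (log2 -0.49 ± 0.16, edgeR adjusted p = 0.0223) and 1.60-fold lower at 14 days (log2 -0.68 ± 0.16, edgeR adjusted p = 0.0119). At 2 days the log2 fold change was -0.38 ± 0.16 and was not called (edgeR adjusted p = 0.0757). Leaving out 2-day replicate 2 gave -0.57 there (edgeR adjusted p = 0.00331). The 7-day call was lost without 7-day replicate 1 or 3 or 6-week replicate 3 (edgeR adjusted p between 0.0723 and 0.0793), and the 14-day call without 14-day replicate 3 or 6-week replicate 3 (edgeR adjusted p = 0.0502 and 0.0528).

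**Figure D2:**
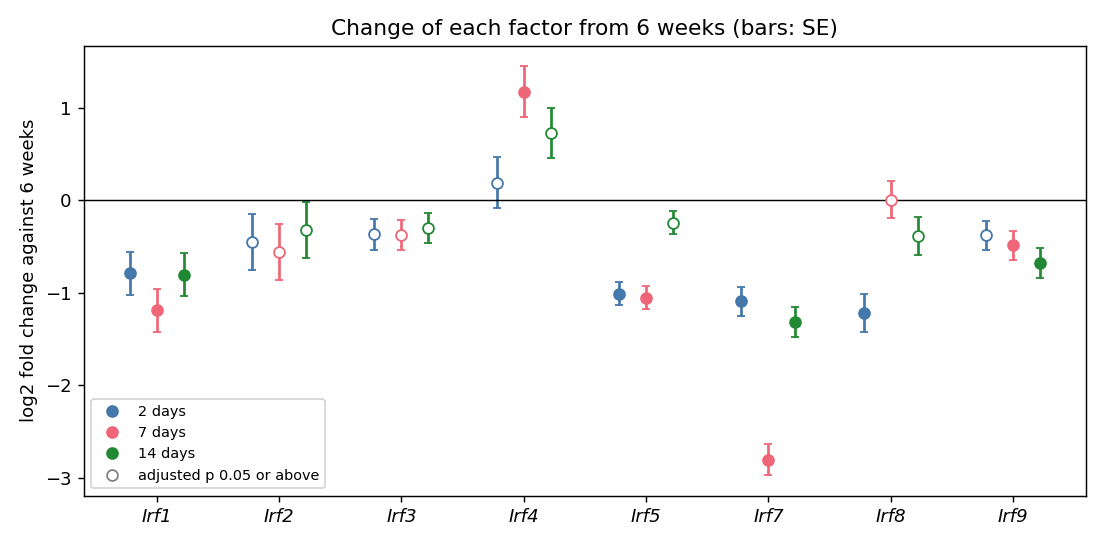
Log2 fold change against 6 weeks (vertical axis) of each factor at 2, 7 and 14 days, with the standard error as bars; filled points passed an adjusted p of 0.05 and open ones did not. Irf7 at 7 days lies at -2.81, Irf4 at 7 days is the one filled point above 0, and Irf8 has a filled point at 2 days.

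Irf8, the regulator that favours monocytes and dendritic cells over neutrophils and is also active in B cells, followed a course of its own. Its levels were 71.0, 45.6 and 50.7 CPM at 2 days, 143, 115 and 134 CPM at 7 days, 68.8, 114 and 115 CPM at 14 days, and 138, 119 and 132 CPM at 6 weeks. The 2-day libraries lay below those of 7 days and 6 weeks, which overlapped, and 14-day replicate 1 fell within the 2-day range. Irf8 was 2.33-fold lower at 2 days than at 6 weeks (log2 -1.22 ± 0.21, edgeR adjusted p = 0.000563) and rose 2.34-fold from 2 to 7 days (log2 1.23 ± 0.21, edgeR adjusted p = 0.000438). At 7 days the difference from 6 weeks was 0.01 ± 0.20 on the log2 scale and was not called (edgeR adjusted p = 0.977). Irf8 was also higher at 14 days than at 2 days (log2 0.83 ± 0.20, edgeR adjusted p = 0.0101), a call that was lost when the libraries of these 2 ages were fitted alone (edgeR adjusted p = 0.0651).

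Irf4, a factor of activated lymphocytes, plasma cells and some macrophages and dendritic cells, was the one member called higher at a young age than at 6 weeks. Its levels were 23.3, 8.66 and 22.1 CPM at 2 days, 35.3, 31.5 and 40.4 CPM at 7 days, 28.0, 27.1 and 23.3 CPM at 14 days, and 15.7, 15.2 and 16.4 CPM at 6 weeks. The 7-day libraries lay above all others, those of 14 days above those of 6 weeks, and 2-day replicate 2 was the lowest of all. Irf4 was 2.26-fold higher at 7 days than at 6 weeks (log2 1.18 ± 0.27, edgeR adjusted p = 0.00333) and 1.98-fold higher than at 2 days (log2 0.98 ± 0.27, edgeR adjusted p = 0.0099). The 14-day difference from 6 weeks, 0.73 ± 0.27 on the log2 scale, was not called (edgeR adjusted p = 0.0813), and it was called without 2-day replicate 2 (log2 0.74, edgeR adjusted p = 0.000601). At 2 days the difference from 6 weeks was 0.19 ± 0.27 (edgeR adjusted p = 0.603), and it ranged from -0.05 without 2-day replicate 1 to 0.53 without 2-day replicate 2.

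Irf4 and Irf8 are abundant in B cells, monocytes and dendritic cells, whose markers varied with age. The summed level of 8 B-cell markers, among them Cd79a and Cd79b, was 257 to 345 CPM at 2 days, 547 to 616 CPM at 7 days, 155 to 417 CPM at 14 days and 412 to 532 CPM at 6 weeks. In 14-day replicate 1, where Irf8 was lowest for its age, that sum was 155 CPM, the lowest of all 12 libraries. The low sum was not particular to B cells. The same library had the lowest erythroid, T and NK cell, mast cell group and stromal marker sums of all 12. Its monocyte, dendritic and plasma cell sums were the lowest at 14 days, and its neutrophil sum, 101053 CPM, was the highest at that age. The 15 monocyte and macrophage markers summed to 911 to 1236 CPM at 2 days, 2232 to 2284 CPM at 7 days, 1252 to 1607 CPM at 14 days and 4104 to 4389 CPM at 6 weeks. Of these 15, 12 were lower and 1 higher at 2 days, 8 were lower and 1 higher at 7 days, and 10 were lower and 2 higher at 14 days than at 6 weeks. Of all genes tested, 19.7%, 26.6% and 9.26% were lower and 20.7%, 24.5% and 9.68% higher in these comparisons. The 8 dendritic cell markers summed to 49.7 to 98.3, 29.3 to 34.0, 236 to 281 and 192 to 241 CPM at the 4 ages from youngest to oldest. Itgax made up most of that sum at 2 days, 14 days and 6 weeks, with means of 52.8, 184 and 167 CPM, and averaged 10.2 CPM at 7 days. From 2 to 7 days, where Irf8 rose, 4 of the 8 dendritic cell markers rose and 1 fell, with a median log2 fold change of 0.85. Of all genes tested, 22.9% rose and 25.8% fell between these ages. Plasma cell markers, 5 in all, summed to 9.45 to 13.1, 29.6 to 34.9, 16.7 to 34.4 and 71.7 to 190 CPM from youngest to oldest. That sum was highest at 6 weeks, where Irf4 averaged 15.8 CPM, its lowest mean. Jchain, with a mean of 94.0 CPM, made up most of it there. Mzb1 averaged 24.5 CPM at 7 days and 18.3 CPM at 6 weeks. From 2 to 7 days, where Irf4 rose, all 4 tested plasma cell markers and 7 of the 8 B-cell markers rose and none fell. Of all genes, 22.9% rose and 25.8% fell. Tnfrsf17, a plasma cell marker, was at 0 counts at 2 days, and no other listed marker was at 0 over an age. The monocyte and macrophage sum was highest at 6 weeks, as were the mean levels of Irf1, Irf2, Irf3, Irf5, Irf7 and Irf9. At 7 days, where Irf7 was lowest, that sum lay above the sums of 2 and 14 days. The part of these cells in the levels of the factors and of the pathway genes was not tested.

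**Figure D3:**
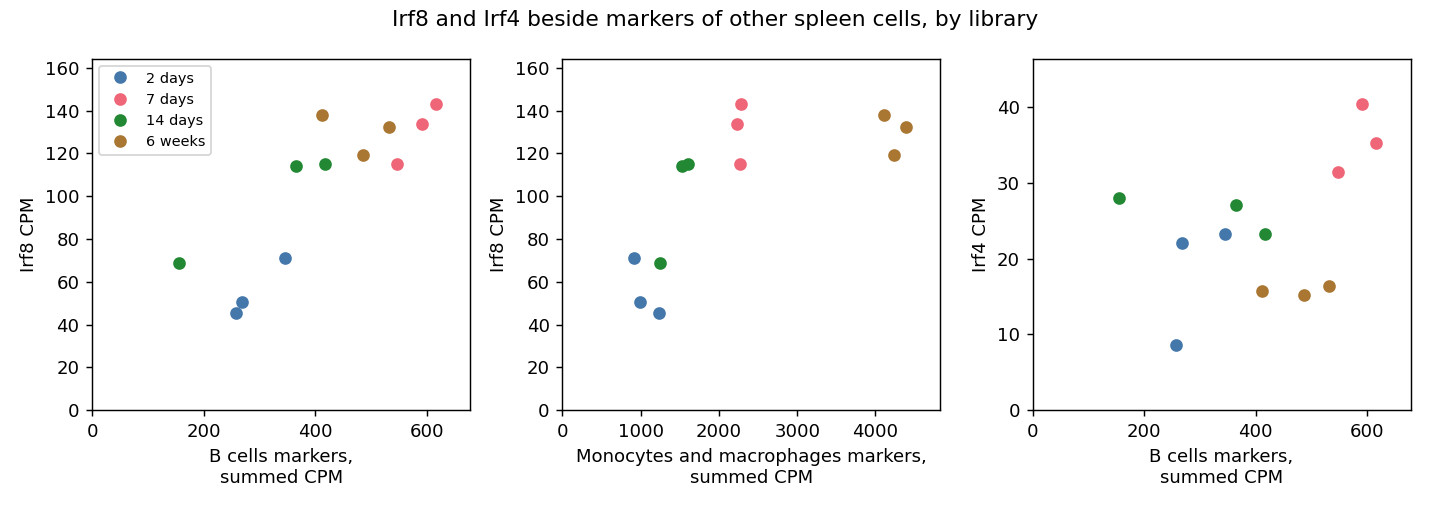
Level of Irf8 (left and middle) and Irf4 (right) in CPM against the summed CPM of markers of B cells or of monocytes and macrophages, with a point for each of the 12 libraries coloured by age. The 14-day library with 68.8 CPM of Irf8 has the lowest B-cell sum, 155 CPM, and the lowest monocyte sum of its age, 1252 CPM. The 6-week libraries have the highest monocyte sums with Irf8 between 119 and 138 CPM.

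Markers of the other cell groups differed between ages as well. Those of mast cells, basophils and eosinophils summed to 1612 to 3069 CPM at 2 days, 229 to 282 CPM at 7 days, and at most 173 CPM in any library of 14 days or 6 weeks. The library with the least at 2 days, replicate 2, was also the one with the lowest Irf4 and the highest Irf1, Irf2, Irf3, Irf7 and Irf9 of its age. Tpsb2 and Cpa3, with means of 1403 and 693 CPM, made up most of the 2-day sum. Of the 11 markers of this group, 9 were higher and 2 lower at 2 days than at 6 weeks. The shares of all genes were 20.7% and 19.7%. The 2 lower were Ccr3, at 1.37 against 93.1 CPM on average, and Siglecf, at 17.5 against 31.5 CPM. Erythroid markers summed to 733 to 1319 CPM at 7 days, where Irf7 was lowest, against at most 234 CPM in any library of the other ages. The 4 stromal and endothelial markers summed to 46.6 to 99.2 CPM over all libraries. At 2 days 3 of them were higher and 1 lower than at 6 weeks, where 20.7% of all genes were higher and 19.7% lower. Col1a1 averaged 27.5 CPM at 2 days and 4.42 CPM at 6 weeks, whereas Pecam1 averaged 35.5 and 70.6 CPM. The 9 T and NK cell markers summed to 49.3 to 54.1 CPM at 2 days and 101 to 122 CPM at 6 weeks. At 2 days 7 were lower and 1 higher, beside the same shares of all genes. The 13 neutrophil markers summed to 68765 to 89916, 72001 to 79550, 86833 to 101053 and 82223 to 101597 CPM from youngest to oldest. Single markers moved in both directions against 6 weeks, with 3 higher and 4 lower at 2 days, 3 and 5 at 7 days, and 1 and 1 at 14 days. Of all genes, 40.4%, 51% and 18.9% were called there. Csf3r averaged 697 CPM at 7 days and 5974 CPM at 6 weeks, whereas Mmp8 averaged 2358 and 1258 CPM. The part of all these cell groups in the levels of the factors was likewise not tested.

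Levels of different genes were compared per kilobase of the principal transcript. At 6 weeks the order was Irf7 at 139 ± 17 CPM per kilobase (SD, n = 3), Irf1 at 128 ± 28, Irf2 at 85.7 ± 6.0, Irf9 at 73.0 ± 4.5, Irf5 at 47.6 ± 6.2, Irf8 at 45.6 ± 3.3, Irf3 at 31.4 ± 0.78 and Irf4 at 3.31 ± 0.13. The neighbours Irf7 and Irf1, and Irf5 and Irf8, lay within their spread of each other. At 7 days Irf2 led with 58.3 ± 8.9 CPM per kilobase, beside Irf1 at 56.1 ± 3.9 and Irf9 at 52.1 ± 2.6, again within their spread. Irf7 had dropped to the last place but one, at 19.8 ± 2.4, near Irf5 at 22.9 ± 1.3 and Irf3 at 24.2 ± 0.85, and Irf4 came last at 7.49 ± 0.94. Several places depend on the length used. Per kilobase of all exons at 6 weeks, Irf5 came 3rd and Irf2 5th, with Irf9 still 4th, and Irf3 (18.5 CPM per kilobase) stood next to Irf8 (18.4). At 7 days Irf1 and Irf9 then came before Irf2 and Irf5 before Irf3, while Irf7 kept its place.

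As a share of the summed per-kilobase level of the 8 genes, Irf7 made up 25.1% ± 2.4 (SD, n = 3) at 6 weeks, 19.9% ± 1.0 at 2 days, 15.9% ± 0.47 at 14 days and 6.90% ± 0.56 at 7 days. Irf8 made up 16.0% ± 2.2 at 7 days and 8.26% ± 0.32 at 6 weeks. The ratio of Irf8 to Irf7 per kilobase, which needs no scaling between libraries, was 2.60, 1.80 and 2.65 at 7 days. At 2 days it was 0.466, 0.199 and 0.291, at 14 days 0.396, 0.772 and 0.750, and at 6 weeks 0.371, 0.328 and 0.294. Irf8 exceeded Irf7 in each library of 7 days and in no library of another age.

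**Figure D4:**
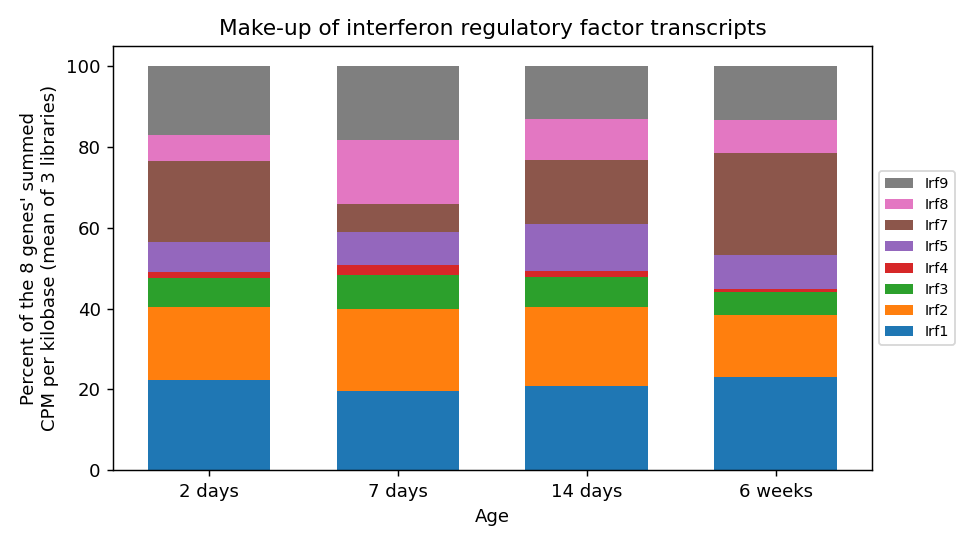
Percent of the summed CPM per kilobase of the 8 factors taken by each (stacked bars from 0 to 100, mean of 3 libraries) at the 4 ages. The band of Irf7 narrows to 6.90% at 7 days, where that of Irf8 widens to 16.0%.

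The genes whose course over the 12 libraries was nearest to each factor were found by the root mean square difference of log2 CPM after centring each gene, among 7620 protein-coding genes of 10 CPM or more. Irf7 was nearest to Oas3 (0.15 on the log2 scale) and Ifitm2 (0.20), both interferon-induced antiviral genes. Irf1 was nearest to H2-D1 (0.11), a class I major histocompatibility gene, and Cdk2ap2 (0.13). Irf8 was nearest to Plekho1 (0.11) and Cat (0.15), the gene of catalase. Irf5 was nearest to Uap1l1 (0.13) and Ptms (0.14), Irf9 to Ndfip1 (0.07) and Phf23 (0.10), and Irf3 to Safb (0.06) and Dvl2 (0.08). Irf2 was nearest to Prickle3 (0.12) and Atxn3 (0.13), and Irf4, with the loosest match of the 8, to Ccp110 (0.20) and C1qtnf12 (0.21). Among the factors themselves Irf3 and Irf9 were the closest pair (0.21) and Irf4 and Irf7 the farthest apart (1.53). The values were centred but not scaled, so genes that changed little come out close to each other by this measure.

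Upstream of the factors, 19 genes of nucleic acid and Toll-like receptor sensing, their adaptors and their kinases were all tested. At 2 days 9 were lower and 3 higher than at 6 weeks, at 7 days 10 were lower and 2 higher, and at 14 days 5 were lower and 1 higher, with medians of -0.46, -0.35 and -0.21 on the log2 scale. Of all genes tested, 19.7%, 26.6% and 9.26% were lower and 40.4%, 51% and 18.9% were called in these comparisons. The 14-day count of lower genes was 8 without 2-day replicate 2, 3 without 14-day replicate 1 or 6-week replicate 1, and 2 without 6-week replicate 3, and the 1 higher gene was lost without any single library other than 2-day replicate 1 or 2. Myd88, the adaptor through which Toll-like receptors reach Irf5 and Irf7, averaged 249 ± 36, 90.9 ± 12, 220 ± 38 and 412 ± 68 CPM (SD, n = 3) from 2 days to 6 weeks, and was 4.54-fold lower at 7 days than at 6 weeks (edgeR adjusted p = 2.37e-06). Mavs, the mitochondrial adaptor of RNA sensors, ran the other way at 7 days, with 48.9 ± 6.1 CPM against 17.4 ± 1.1 CPM at 6 weeks (log2 1.49 ± 0.28, edgeR adjusted p = 0.000914), and was lower at 2 days (log2 -1.56) and 14 days (log2 -1.04). Tbk1, the kinase of Irf3, was higher at 2 days (log2 0.50 ± 0.11, edgeR adjusted p = 0.00332) and lower at 7 days (log2 -0.35 ± 0.11, edgeR adjusted p = 0.0195).

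Interferon transcripts themselves were scarce. Of 8 interferon genes listed, 1, Ifng, passed the filter on low counts, with 0.879 ± 0.13 CPM at 6 weeks and no call at any young age. Of the 10 interferon receptor, Jak and Stat genes, 3 were lower and none was higher at 2 days, 8 were lower and 1 higher at 7 days, and 5 were lower and none was higher at 14 days, with medians of -0.27, -0.85 and -0.36. The 3 of 10 called at 2 days were a smaller share than the 40.4% of all genes, and the 9 of 10 at 7 days and 5 of 10 at 14 days stood beside 51% and 18.9%. Without 2-day replicate 2 the 2-day count was 6, and without 6-week replicate 3 the 14-day count was 3. Stat2, a partner of Irf9, was lower at all 3 young ages. It averaged 42.1 ± 3.3, 32.4 ± 2.5, 45.0 ± 1.2 and 77.6 ± 6.5 CPM from youngest to oldest, a log2 fold change of -1.26 ± 0.10 at 7 days (edgeR adjusted p = 2.41e-06). Ifngr1, a chain of the interferon-gamma receptor, was lowest at 7 days, with 90.0 ± 3.7 CPM against 224 ± 27 CPM at 6 weeks (log2 -1.32 ± 0.13, edgeR adjusted p = 7.26e-06).

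Downstream, 18 known targets of the interferon-activated Irf9 complex were all tested, and 15 were lower at 2 days, 17 at 7 days and 15 at 14 days, with none higher, where 19.7%, 26.6% and 9.26% of all genes were lower. Their medians were -1.70, -2.65 and -1.47 on the log2 scale, beside -0.38, -0.49 and -0.68 for Irf9 itself. From 7 to 14 days 13 of them rose and none fell, where 24% of all genes rose and 21.9% fell. Ifit1, an antiviral RNA-binding protein, averaged 17.3 ± 6.5, 1.89 ± 0.035, 9.50 ± 2.7 and 60.7 ± 20 CPM from youngest to oldest, and was 32.0-fold lower at 7 days than at 6 weeks (edgeR adjusted p = 1.06e-06). Zbp1, a sensor of Z-form nucleic acids, was lower by still more than Irf7 at 7 days (log2 -3.33 ± 0.16, edgeR adjusted p = 6.06e-08).

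Of 10 known targets of Irf1, 9 were lower at 2 days, 8 at 7 days and 7 at 14 days, with medians of -1.02, -1.60 and -0.64, where 19.7%, 26.6% and 9.26% of all genes were lower. Tap1, the peptide transporter of class I antigen presentation, averaged 141 ± 11, 52.6 ± 2.9, 144 ± 9.3 and 244 ± 18 CPM, 4.64-fold lower at 7 days than at 6 weeks (edgeR adjusted p = 6.06e-08). Cd274, which encodes the T-cell inhibitory ligand PD-L1, averaged 17.1 ± 2.6, 12.1 ± 0.68, 41.0 ± 7.5 and 57.4 ± 6.4 CPM (log2 -2.24 ± 0.16 at 7 days, edgeR adjusted p = 8.71e-07). Nos2, the inducible nitric oxide synthase, was the one target with a positive 2-day value, 1.43 ± 0.55 on the log2 scale (edgeR adjusted p = 0.0554), which DESeq2 and limma-voom called.

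**Figure D5:**
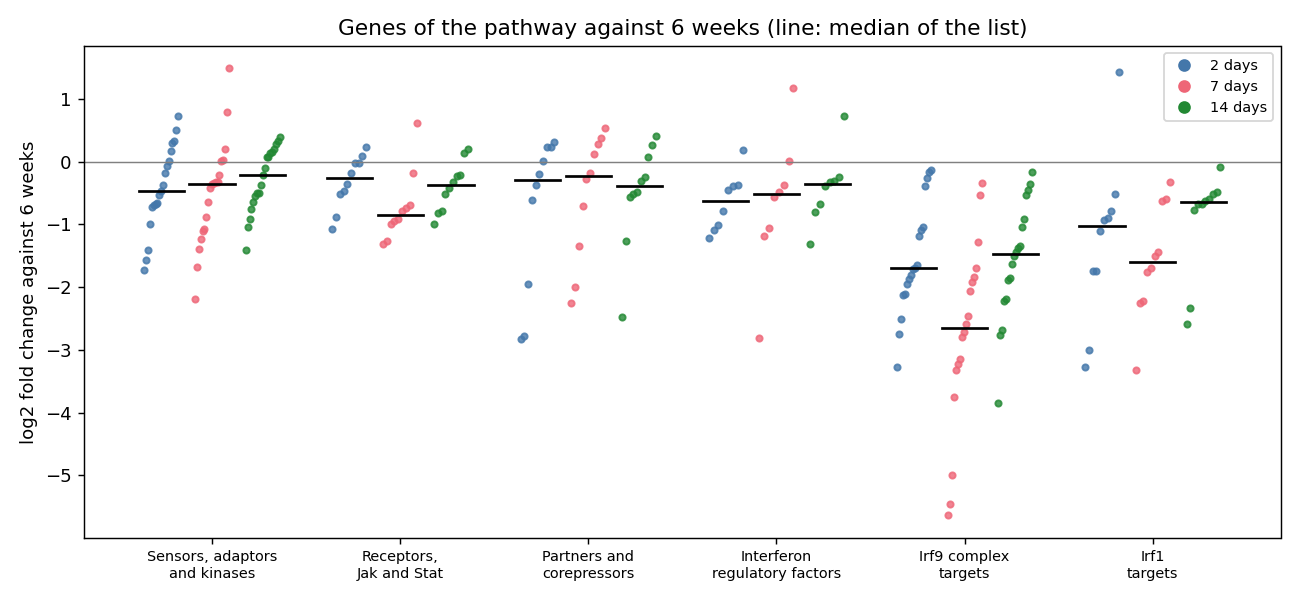
Log2 fold change against 6 weeks (vertical axis) of each tested gene in 6 lists of the pathway, coloured by young age, with a line at each list's median. The targets of the Irf9 complex have medians of -1.70, -2.65 and -1.47, the lowest of the lists shown at each age, while the factors have -0.62, -0.52 and -0.35.

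Among 10 DNA-binding partners and corepressors, 4 were lower and none higher at 2 days, 4 lower and 1 higher at 7 days, and 2 lower and 1 higher at 14 days. The shares called, 4 of 10 and 5 of 10 at 2 and 7 days, were near the 40.4% and 51% of all genes, and 3 of 10 at 14 days stood beside 18.9%. The 14-day count of lower genes was 4 without 2-day replicate 2, and the 1 higher gene at 7 or at 14 days was lost if 14-day replicate 3 or replicate 1 or 3 of 6 weeks was left out, and at 7 days also without replicate 2 of 6 weeks. Spi1, the partner of Irf4 and Irf8, averaged 1148 ± 279, 809 ± 53, 1064 ± 105 and 1320 ± 116 CPM and was lower at 7 days (log2 -0.71 ± 0.17, edgeR adjusted p = 0.00392). Batf3, a dendritic cell partner of Irf8, was at 0.882 ± 0.061 CPM at 2 days and 6.26 ± 0.94 CPM at 6 weeks (log2 -2.82 ± 0.21, edgeR adjusted p = 9.91e-07). Irf2bpl, a relative of the Irf2 corepressors, was lower at all 3 young ages, by 3.87-fold at 2 days (edgeR adjusted p = 2.67e-06).

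Of 12 regulators of the choice between granulocytes and monocytes, 3 were higher and 3 lower at 2 days, 2 higher and 5 lower at 7 days, and 4 higher and 1 lower at 14 days. The called genes, 6, 7 and 5 of 12, stood beside 40.4%, 51% and 18.9% of all genes, near the background at 2 and 7 days. Without 2-day replicate 2 the lower genes numbered 5 at 2 days and 2 at 14 days, and the 2 higher at 7 days numbered 0 without 6-week replicate 1 or 3 and 1 without 7-day replicate 1 or 2 or 14-day replicate 3. Egr2, a monocyte and macrophage regulator, was 5.42-fold higher at 2 days and 4.90-fold higher at 14 days than at 6 weeks (edgeR adjusted p = 9.1e-07 and 1.13e-05). At 7 days its log2 fold change was -0.05 ± 0.17 and was not called (edgeR adjusted p = 0.843). Id2, an inhibitor of E proteins, was 3.22-fold higher at 2 days (edgeR adjusted p = 1.46e-06).

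Between the young ages, 3 of 8 factors were called from 2 to 7 days, where 48.7% of all genes were, namely Irf4 and Irf8 higher and Irf7 lower at 7 days. From 7 to 14 days 2 rose, Irf5 and Irf7, and none fell, where 45.9% of genes were called. Between 2 and 14 days 2 were called, beside 25.1% of genes, and both Irf5 (log2 0.77 ± 0.13, edgeR adjusted p = 0.000882) and Irf8 were higher at 14 days. Without 2-day replicate 2 the counts were 5 from 2 to 7 days and 4 between 2 and 14 days.

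On mm10 coordinates from GENCODE, Irf1 lies at chr11:53770014-53778374, Irf2 at chr8:46739732-46847458, Irf3 at chr7:44997648-45002848 and Irf4 at chr13:30749226-30766976. Irf5 lies at chr6:29526625-29541871, Irf7 at chr7:141262706-141266481 on the minus strand, Irf8 at chr8:120736358-120756694 and Irf9 at chr14:55603571-55610030. Irf2, Irf4 and Irf8 share no exon bases with another gene of the table. Irf5 shares 411 bases with Tnpo3 on the opposite strand, Irf1 135 with Gm17334, Irf3 88 with Bcl2l12 and Irf7 45 with Phrf1, also opposite, and Irf9 shares 123 with Rnf31 on its own strand. The sources used here do not say whether counting used the strand, so reads in the bases shared with an opposite gene cannot be assigned. Of these genes Tnpo3, with 24281 counts in all beside 33228 of Irf5, is the one where this could weigh most. The strand would not separate Irf9 from Rnf31, which had 43767 counts beside 61385 of Irf9.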

How the data were processed

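RNA of Ly6G+ spleen cells was sequenced at 4 ages with 3 libraries each. The deposited table gives whole-number counts per Ensembl gene, made by the authors; the submitters' processing notes name RSEM 1.2.3, DESeq2 and mm10, without roles, and strand use is not given in the sources used here. RSEM gives estimated counts, so the whole numbers may be rounded. Of 38887 identifiers 37570 had a symbol in the GENCODE annotation, and the other 1317 held 0.38% of counts. Genes were filtered with filterByExpr (minimum count 10), leaving 15494. One edgeR 4.0.16 quasi-likelihood model (R 4.3.3) with TMM factors and age alone was fitted to the 12 libraries, with Benjamini-Hochberg adjustment over all genes at 0.05. Standard errors are the log2 fold change over the root of F. Alternatives were DESeq2 1.42.0, limma-voom (limma 3.58.1), library totals without TMM factors, no filter, the 2 compared ages alone, a replicate block, and each library left out. The scripts were tested on simulated data. No pair of replicates matched within sampling noise.

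The 8 factors and all lists were chosen with earlier results of these data known. Named genes were the factors, the 2 protein-coding genes nearest each factor, and per list the 2 with the smallest joint p plus direct partners of a factor; a few that this rule names are not reported here. Per-kilobase levels use the principal transcript.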

Additional observations from a re-analysis of the deposited data

How the results depend on the processing

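Among the recomputed log2 fold changes of the factors, 529 kept direction and call, 12 lost the call, 14 gained it and 3 changed sign. DESeq2, limma-voom and dropping the filter changed no call of a factor. Library totals in place of TMM factors moved the median of all genes from -0.01 to 0.16 at 7 days against 6 weeks, and called Irf3 (-0.38) and Irf9 (-0.38) at 2 days. With only the 2 compared ages, 1 factor was called between 14 and 2 days, 5 between 14 days and 6 weeks, and 7 in place of 5 between 7 days and 6 weeks, with Irf2 (-0.53) and Irf3 (-0.34) gained. The labels number the replicates 1 to 3 at each age, but libraries of the same number did not deviate together (correlations from -0.253 to 0.202 over 18 pairs). With the replicate number as a block, 2 factors in place of 3 were called at 14 days against 6 weeks, Irf1 being lost (-0.81, edgeR adjusted p = 0.0545). Leaving out each library gave 3 to 8 factors at 2 days against 6 weeks, 4 to 7 at 7 days against 6 weeks, 1 to 5 at 14 days against 6 weeks, 3 to 5 between 7 and 2 days, and 2 to 4 between 14 and 2 days. The signs that changed were those of Irf4 at 2 days (-0.049 to 0.53) and Irf8 at 7 days (-0.049 to 0.095), neither called with all libraries. The cause was not tested. With 3 libraries an age, a spread like that of Irf2 at 2 days, a coefficient of variation of 60.1%, sets the precision of that comparison.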
